A study of Mus musculus with 12 samples.

Results

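The chemokine ligands described here are 10 genes chosen by symbol, Cxcl9, Cxcl10, Cxcl16, Cxcl12, Ccl2, Ccl3, Ccl4, Ccl5, Ccl12 and Cx3cl1. All 10 were found among the 16389 genes of the table, and all 10 were among the 16388 genes tested. RNA was sequenced from eGFP+ cells that were sorted by FACS from a 1 cm segment of thoracic spinal cord of adult (12 weeks) male Aldh1l1-EGFP mice on a Swiss Webster background. All groups carry this transgene, in which the Aldh1l1 promoter, active in astrocytes, drives enhanced green fluorescent protein. Non-injured (NI) mice gave 3 libraries. A lateral hemisection (HS, "hemi-section" in the labels) at thoracic level 9 gave 3 libraries at 1 week and 2 libraries at 2 weeks, and a full transection (FT) at the same level gave 1 library at 1 week and 3 libraries at 2 weeks. The methods state 3 biological replicates for every group, unlike the labels, give more mice than libraries and do not say how mice were pooled, so p-values measure only the spread between these libraries. The FT 1 week group had no replicate, and its tests assume that it varies like the other groups.

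Chemokines are small secreted proteins that direct the migration of leukocytes along a concentration gradient by binding G protein-coupled receptors. They are named by the spacing of their first cysteines (CC, CXC or CX3C), and 1 receptor often binds several ligands. In the injured spinal cord, astrocytes, microglia and infiltrating leukocytes are all known sources, and interferons, TNF and interleukin-1 are known inducers.

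Cxcl9 and Cxcl10 encode interferon-inducible ligands of CXCR3, the receptor of activated T cells and natural killer cells. Both genes lie on the minus strand of chromosome 5 in GRCm38, Cxcl9 at chr5:92321347-92328079 and Cxcl10 at chr5:92346638-92348889. They are the CXC members with the highest levels at 1 week after FT relative to NI, so the 250 bases before their annotated starts are shown. Cxcl9 covers chr5:92328080-92328329 and Cxcl10 covers chr5:92348890-92349139, both minus strand, 5′ to 3′, from RefSeq on GRCm38.p6. Capitals mark matches to the motifs searched.
Cxcl9: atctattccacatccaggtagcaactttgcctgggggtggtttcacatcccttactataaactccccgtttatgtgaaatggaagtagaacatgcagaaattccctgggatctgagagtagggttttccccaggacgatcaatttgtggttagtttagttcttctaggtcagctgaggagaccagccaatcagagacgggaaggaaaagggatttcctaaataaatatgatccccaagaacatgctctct
Cxcl10: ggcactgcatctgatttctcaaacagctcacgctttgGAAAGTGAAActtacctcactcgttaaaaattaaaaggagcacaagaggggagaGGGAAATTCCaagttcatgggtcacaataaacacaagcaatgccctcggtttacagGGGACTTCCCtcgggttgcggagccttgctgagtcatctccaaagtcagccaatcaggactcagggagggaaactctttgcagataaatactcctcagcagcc
The motifs searched, on both strands, were the core of the interferon-stimulated response element (ISRE, GAAA, any 2 bases and GAAA), the interferon gamma-activated sequence (GAS, TTCNNNGAA) and the NF-kB consensus. The Cxcl10 window held the ISRE core as GAAAGTGAAA, 213 to 204 bases before the start. It also held the NF-kB consensus 2 times, as GGGAAATTCC (159 to 150 bases before the start) and as GGGACTTCCC (103 to 94 bases before the start). No match overlapped another. Among 32851 promoter windows of this length, 2.98% held the ISRE core, 7.02% the GAS and 3.9% the NF-kB consensus. Of the 10 ligands, 6 had an entry in the promoter table, and the windows of Cxcl9, Cxcl12, Ccl3, Ccl12 and Cx3cl1 held none of these letters. Cxcl16, Ccl2, Ccl4 and Ccl5 were not matched.

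Values are normalized counts, that is gene counts divided by 1 factor per library, and 1 read was worth 0.06117 to 0.1343 normalized counts. A gene counted as called at a limma-trend adjusted p under 0.05 if it also changed 2-fold or more. Log2 fold changes are of normalized counts plus 1, which understates the change of low genes. The likelihood ratio test of edgeR, the kind of model the study used, is given beside it at the same thresholds. The 12 libraries held 8270643 to 15562378 reads. The label astrocytes was checked against marker lists. The sum over 11 astrocyte markers was 672.1 to 8607 normalized counts per library, and that over 10 oligodendrocyte markers was 54300 to 112900, not scaled for transcript length, and the second sum was the higher in all 12 libraries. Aldh1l1 itself was 10.22 to 126.7. The sum over 14 microglia and macrophage markers ranged within each replicated group, from 699.5 to 6511 in NI, 801.2 to 10660 at 1 week and 1653 to 10100 at 2 weeks after HS and 1153 to 1967 at 2 weeks after FT, and was 7899 in the lone FT 1 week library. In bulk RNA, fewer cells of a type and less RNA per cell cannot be told apart.

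Cxcl9 was the only ligand called by limma-trend against NI, and only at 1 week after FT, where 0.372% of all genes were called higher. Its normalized counts were 0.6286, 1.277 and 1.439 in NI, 1.697, 0.08675 and 3.303 at 1 week after HS, 2.49 and 1.099 at 2 weeks after HS, 82.87 in the lone FT 1 week library, and 1.315, 3.845 and 2.59 at 2 weeks after FT. The FT 1 week library therefore stood 21.6 times above the next highest library, while the other 4 groups overlapped. The lowest value, in HS 1 week replicate 2, was 1 read (exact Poisson 95% interval 0.0022 to 0.483 normalized counts, counting error only). At 1 week after FT Cxcl9 rose by 5.33 log2 units (standard error 0.67, limma-trend adjusted p = 0.00508), a call that was lost when only the compared groups were fitted (adjusted p = 0.0905). The fold from the likelihood ratio test was 73.4 (FDR = 3.49e-09). Compared with 1 week after HS, it was higher at 1 week after FT by 5.17 log2 units (standard error 0.67, limma-trend adjusted p = 0.00703, edgeR quasi-likelihood FDR = 0.0521). It was lower at 2 weeks than at 1 week after FT by 4.61 log2 units (standard error 0.67, limma-trend adjusted p = 0.0141, edgeR quasi-likelihood FDR = 0.0766). All 3 of these comparisons rest on the same single library.

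**Figure D1:**
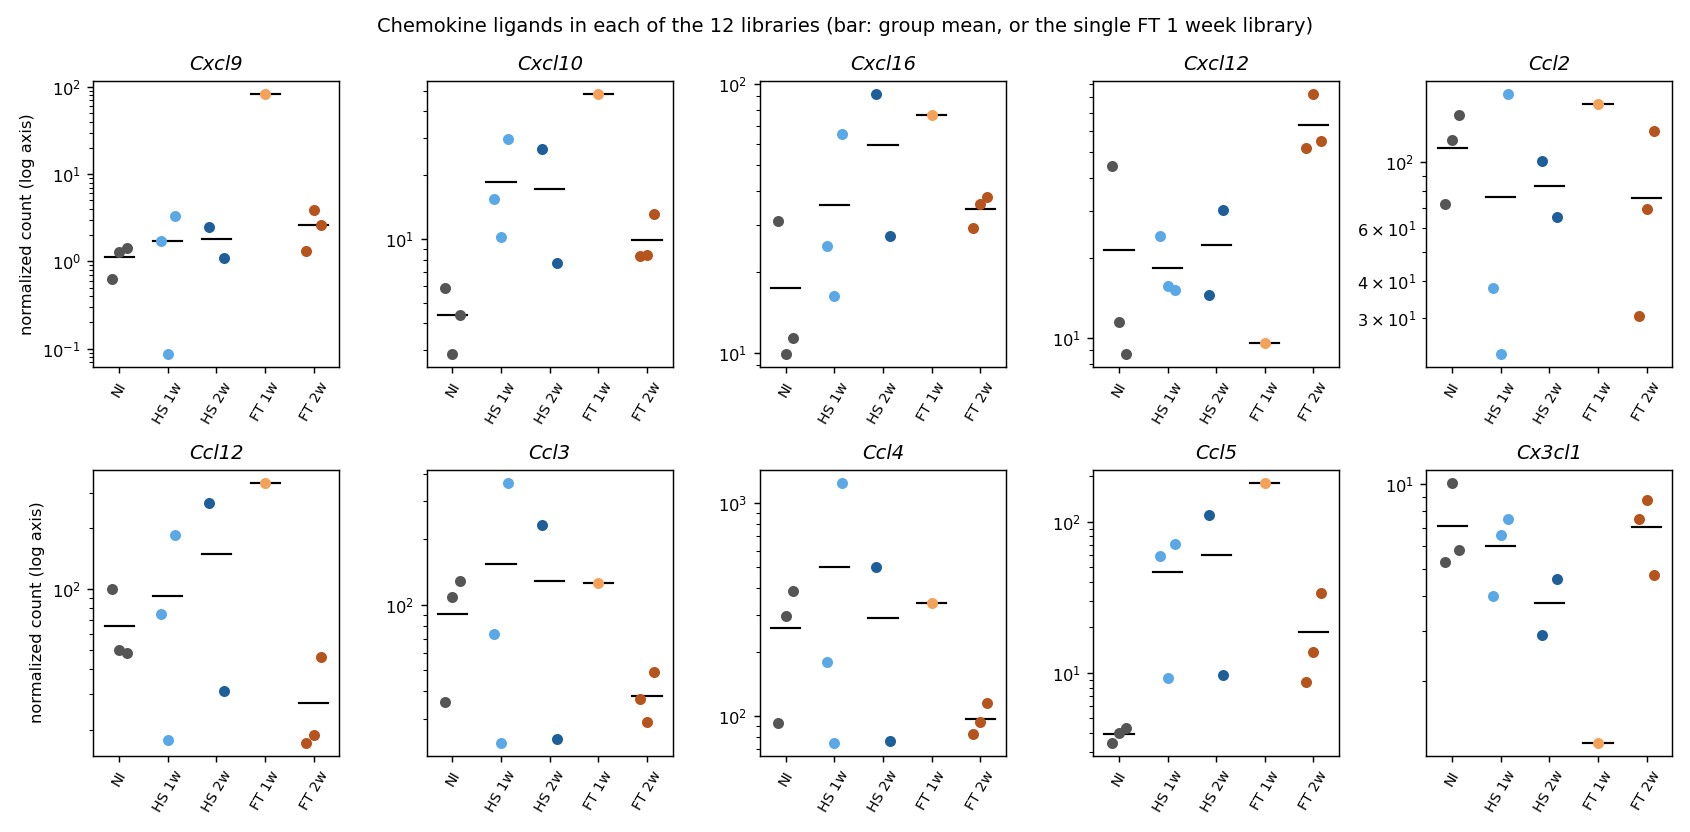
Normalized counts (log axis) of the 10 chemokine ligands in each of the 12 libraries by group, with a bar at the group mean or at the single FT 1 week library. Cxcl9 is at 82.87 in the lone FT 1 week library and at most 3.845 elsewhere, and Cxcl10 and Ccl5 are above every NI library in all 9 injured libraries.

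Cxcl10 was higher than every NI library in all 9 injured libraries, as were 1.97% of all genes. It was 5.893, 2.872 and 4.39 normalized counts in NI, 15.52, 10.24 and 29.79 at 1 week after HS, 26.61 and 7.692 at 2 weeks after HS, 48.35 in the lone FT 1 week library, and 8.326, 8.389 and 13.12 at 2 weeks after FT. The order of the group means was FT 1 week, HS 1 week, HS 2 weeks, FT 2 weeks and NI, with overlapping ranges between the injured groups except for the FT 1 week library. Log2 fold changes against NI were 1.77, 1.56, 3.24 and 1.03 at HS 1 week, HS 2 weeks, FT 1 week and FT 2 weeks. The adjusted p of limma-trend were 0.46, 0.572, 0.0746 and 0.468, so none was called. The likelihood ratio test of edgeR called Cxcl10 at 1 week after HS (4.23-fold, FDR = 0.0276) and at 1 week after FT (11-fold, FDR = 3.01e-05), and not at 2 weeks after HS (FDR = 0.0629) or after FT (FDR = 0.305). For the mean of the 4 injured groups the log2 fold change was 1.90 (limma-trend adjusted p = 0.0839, likelihood ratio FDR = 8.42e-04). Of the exonic bases of Cxcl10, 5.91% overlap Art3 on the other strand, and the library kit keeps no strand, so reads there cannot be told apart.

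Ccl5 encodes RANTES, a ligand of CCR1 and CCR3 made by T cells, natural killer cells and glia (chr11:83525778-83530518, minus strand). It had the smallest coefficient of variation in NI of the 10 ligands (11.1%), at 3.457, 4.021 and 4.318 normalized counts. After injury it was 59.65, 9.282 and 71.14 at 1 week and 110.9 and 9.743 at 2 weeks after HS, 180.8 in the lone FT 1 week library, and 8.691, 13.75 and 33.58 at 2 weeks after FT. All 9 injured libraries thus lay above the NI range, although HS 1 week replicate 2 and HS 2 weeks replicate 2 stood far below their group's other libraries. Log2 fold changes were 2.85, 2.82, 5.21 and 1.79 at HS 1 week, HS 2 weeks, FT 1 week and FT 2 weeks, with standard errors of 0.89 to 1.26. The limma-trend adjusted p were 0.511, 0.576, 0.132 and 0.499. In the likelihood ratio test of edgeR Ccl5 was 11.8-fold higher at 1 week after HS (FDR = 0.00175), 15.3-fold higher at 2 weeks after HS (FDR = 7.01e-04) and 45.8-fold higher at 1 week after FT (FDR = 7.68e-07). At 2 weeks after FT the fold of 4.74 was not called (FDR = 0.0707). Averaged over the injured groups, the log2 fold change was 3.17 (limma-trend adjusted p = 0.118, likelihood ratio FDR = 4.1e-05).

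Of 12 T cell and natural killer cell markers, 7 were in the table. Their sum was 11.71 to 82.7 normalized counts in NI, 3.73 to 27.59 at 1 week and 5.348 to 5.692 at 2 weeks after HS, 40.83 in the lone FT 1 week library and 6.354 to 12.82 at 2 weeks after FT, with no defining marker at 0 in any library. In the FT 1 week library Klrk1, the natural killer receptor NKG2D, was 22.56 and at most 1.655 elsewhere, while Nkg7, another marker of natural killer cells, was 2.552 there and 8.172, 16.85 and 55.78 in NI, and Cd3e was 0.9401 there and 0.3637 to 1.583 elsewhere. The part of these cells in the levels of Cxcl9, Cxcl10 and Ccl5 was not tested.

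Ccl3 and Ccl4 encode MIP-1α and MIP-1β, closely related CC chemokines that are typical products of activated microglia and macrophages. They lie close together on chromosome 11 (chr11:83647844-83649355, minus strand, and chr11:83662584-83664683, plus strand). Ccl3 was 35.83, 108.5 and 129 normalized counts in NI, 73.34, 23.25 and 364.5 at 1 week and 232.4 and 24.25 at 2 weeks after HS, 126.2 in the lone FT 1 week library, and 36.81, 29.01 and 48.93 at 2 weeks after FT. Ccl4 was 92.49, 295.9 and 386.8 in NI, 179.7, 75.12 and 1250 at 1 week and 502.4 and 76.33 at 2 weeks after HS, 340.7 in the lone FT 1 week library, and 82.53, 93.56 and 115.2 at 2 weeks after FT. Within each HS group the libraries differed more than the group means did, and in all 4 comparisons with NI the groups overlapped. The log2 fold changes lay between -1.18 and 0.66 with standard errors of 0.97 to 1.39 (limma-trend adjusted p of at least 0.687). The 95% interval at 1 week after HS ran from -2.05 to 2.27 for Ccl3 and from -1.91 to 2.36 for Ccl4. Without 1 library the log2 fold change at 1 week after HS ran from -0.93 to 1.03 for Ccl3 and from -0.91 to 1.11 for Ccl4.

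Both genes varied together, and broadly with the microglia markers. Across the 12 libraries Ccl3 spanned 15.7-fold and Ccl4 16.6-fold, whereas the ratio of Ccl4 to Ccl3 stayed between 2.16 and 3.43 (counts not scaled for length). The libraries with the most Ccl4, HS 1 week replicate 3 and HS 2 weeks replicate 1, also had the highest microglia marker sums, 10660 and 10100. The libraries with the least Ccl4, HS 1 week replicate 2 and HS 2 weeks replicate 2, had sums of 801.2 and 1653. The lowest sum, 699.5, was that of NI replicate 1, where Ccl4 was 92.49. FT 2 weeks replicate 2 had a sum of 1153 and a Ccl4 of 93.56. Per 1000 normalized counts of the microglia sum, Ccl4 spanned 3.07-fold and Ccl3 3.49-fold over all 12 libraries. Both ratios were highest in NI replicate 1, at 132.2 for Ccl4 and 51.2 for Ccl3. Ccl5 on this scale was 4.94, 0.819 and 0.663 in NI and 5.15 to 22.9 in the 9 injured libraries. NI replicate 1, at 4.94, was just below the lowest injured library, FT 2 weeks replicate 1, at 5.15. The share of all genes placed this way on this scale was not computed. Cxcl10 on the same scale was 0.585 to 8.42 in NI and 2.63 to 12.8 after injury, and 1 of 9 injured libraries exceeded every NI library. These ratios were chosen after the values were seen and carry no test.

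**Figure D2:**
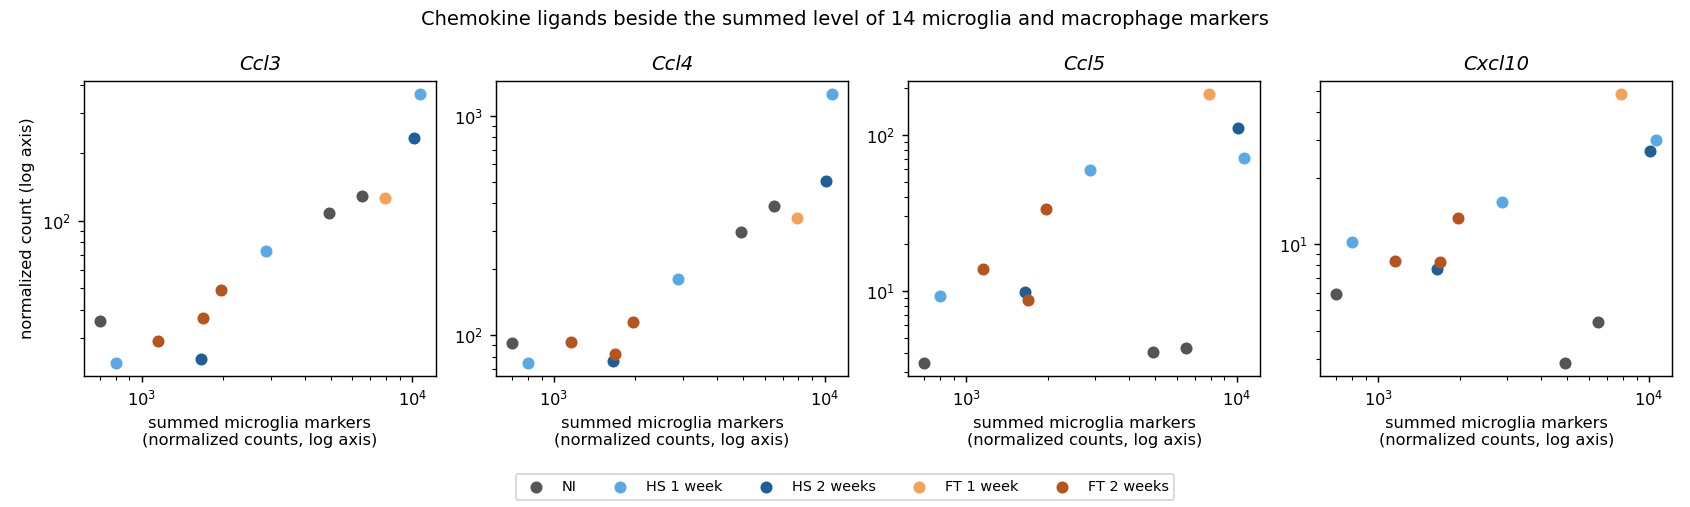
Normalized counts of Ccl3, Ccl4, Ccl5 and Cxcl10 (log axis) against the summed normalized counts of 14 microglia and macrophage markers (log axis), with 1 point per library coloured by group. Ccl3 and Ccl4 are highest in the libraries with the largest marker sums, 10660 and 10100, while the 3 NI libraries have the lowest Ccl5 (3.457 to 4.318) at marker sums from 699.5 to 6511.

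With the log2 microglia sum as a further term in the limma-trend model, the standard error of Ccl3 at 1 week after HS was 0.30, compared with 0.98 without it. In this model 4 ligands were called at 1 week after FT, namely Cxcl9 (log2 fold change 4.85, adjusted p = 1.49e-04), Cxcl10 (2.88, adjusted p = 0.0131), Ccl5 (4.29, adjusted p = 0.0139) and Cx3cl1 (-1.84, adjusted p = 0.0461). The same model called 4.78% of all genes in that comparison. Ccl5 was also called at 1 week after HS (2.83, adjusted p = 0.0414, 0.818% of all genes). For the mean of the injured groups, Cxcl9, Cxcl10 and Ccl5 were called (adjusted p = 0.0058, 0.00561 and 0.00391, 4.3% of all genes). The injured mean of Cxcl9 includes the 4.85 of the lone FT 1 week library. Its log2 fold changes in this model were 0.15, 0.20 and 0.996 at HS 1 week, HS 2 weeks and FT 2 weeks. Ccl2, Ccl3 and Ccl4 had log2 fold changes of -0.17, -0.69 and -0.69 at 1 week after FT in this model, each below its value without the term. Cxcl9, Cxcl10, Cxcl16, Ccl5 and Ccl12 were also below theirs. Cx3cl1 hardly changed (-1.84 compared with -1.82), and Cxcl12 was higher with the term (-0.22 compared with -0.74). At 2 weeks after HS and after FT the model called 0 ligands, with 213 and 131 genes called in all.

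Ccl2 and Ccl12 encode MCP-1 and MCP-5, ligands of CCR2 that recruit monocytes. Both lie on the plus strand of chromosome 11 (chr11:82035571-82037453 and chr11:82101845-82103400). Ccl2 was 72.45, 118.2 and 143.7 normalized counts in NI, 37.95, 22.81 and 168.6 at 1 week and 100.8 and 65.42 at 2 weeks after HS, 156.2 in the lone FT 1 week library, and 30.53, 69.79 and 126.8 at 2 weeks after FT. Its replicated groups overlapped. The FT 1 week library was just above the NI range and within that of HS 1 week, where replicate 3 was 168.6. The log2 fold changes of Ccl2 against NI were -1.003 to 0.54 (limma-trend adjusted p of at least 0.727). Ccl12 was 99.56, 49.6 and 47.94 in NI, 74.68, 17.78 and 185.3 at 1 week and 266.6 and 31.06 at 2 weeks after HS, 336.6 in the lone FT 1 week library, and 17.24, 18.76 and 45.66 at 2 weeks after FT. The FT 1 week library held the highest Ccl12 of all 12, whereas the 3 FT 2 weeks libraries were all below NI. The log2 fold changes were 2.42 and -1.30 (limma-trend adjusted p = 0.504 and 0.621). The difference between these time points was -3.72 log2 units (limma-trend adjusted p = 0.383), which the likelihood ratio test of edgeR called (FDR = 0.00655). The microglia sum was 7899 in the lone FT 1 week library and 1153 to 1967 at 2 weeks after FT. Markers of blood myeloid cells, 8 genes, summed to 341.3 to 5849 in NI and to at most 1180 in every injured library, and their part in the Ccl2 and Ccl12 levels was not tested.

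Cxcl16 encodes a transmembrane chemokine for CXCR6 that is released by ADAM10 (chr11:70453983-70459984, minus strand). Its normalized counts were 30.8, 9.894 and 11.37 in NI, 24.97, 16.31 and 65.09 at 1 week and 91.86 and 27.1 at 2 weeks after HS, 76.42 in the lone FT 1 week library, and 29.07, 35.65 and 37.95 at 2 weeks after FT. All group means were higher than that of NI, by 1.97 to 4.4 times, but NI replicate 1 overlapped every injured group apart from the FT 1 week library. Log2 fold changes were 0.93, 1.65, 2.25 and 1.11 at HS 1 week, HS 2 weeks, FT 1 week and FT 2 weeks (limma-trend adjusted p = 0.715, 0.591, 0.331 and 0.52), and no likelihood ratio test called it. Of its exonic bases 18.3% overlap Zmynd15 on the other strand, where reads cannot be told apart.

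Cxcl12 encodes SDF-1, a constitutive chemokine of stromal and perivascular cells that binds CXCR4 and ACKR3 (chr6:117168535-117181367, plus strand). It was the only ligand with its highest mean at 2 weeks after FT. Normalized counts were 44.08, 11.49 and 8.709 in NI, 24.12, 15.7 and 15.11 at 1 week and 14.44 and 30.18 at 2 weeks after HS, 9.536 in the lone FT 1 week library, and 51.56, 82.38 and 55.08 at 2 weeks after FT. The 3 FT 2 weeks libraries were above all 9 others. The share of all genes placed this way was not computed, and 6.92% of all genes were higher than NI alone without overlap. The log2 fold change against NI was 1.83 (standard error 0.51, limma-trend adjusted p = 0.347, likelihood ratio FDR = 0.0819), and compared with 2 weeks after HS it was 1.51 (limma-trend adjusted p = 0.961, unadjusted p = 0.024). The call against NI depended on NI replicate 1, the NI library with the most Cxcl12. Without it the log2 fold change was 2.51 (limma-trend adjusted p = 0.0177). Leaving it out also raised the genes called in all from 7 to 458 in this comparison. The sum over the 7 pericyte and fibroblast markers in the table moved alongside. It was 7002 in NI replicate 1, 640.5 and 455.3 in the other NI libraries, 149.7 to 2302 and 1366 to 4607 at 1 and 2 weeks after HS, 869.1 in the lone FT 1 week library and 5999 to 11580 at 2 weeks after FT. The part of these cells in the Cxcl12 levels was not tested.

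Cx3cl1 encodes fractalkine, a membrane-bound chemokine of neurons whose receptor CX3CR1 is on microglia (chr8:94772009-94782427, plus strand). It was the only ligand whose lowest value of the 12 was that of the FT 1 week library. Normalized counts were 5.265, 10.09 and 5.83 in NI, 4.001, 6.593 and 7.524 at 1 week and 2.917 and 4.615 at 2 weeks after HS, 1.209 in the lone FT 1 week library (9 reads, exact Poisson 95% interval 0.553 to 2.29, counting error only), and 7.523, 8.739 and 4.744 at 2 weeks after FT. The FT 1 week library and both HS 2 weeks libraries were below every NI library, and the other groups overlapped NI. The log2 fold change at 1 week after FT was -1.82 (standard error 0.47, limma-trend adjusted p = 0.158, likelihood ratio FDR = 0.108, DESeq2 adjusted p = 0.0285). At 2 weeks after FT it was 0.0025. Neuronal markers summed to 17.59 in the lone FT 1 week library and 46.64 to 107.3 in NI. Their sum was 32.85 to 73.59 at 1 week and 33.23 to 79.41 at 2 weeks after HS. At 2 weeks after FT it was 29.21 to 102.4. HS 1 week replicate 3 (32.85) and FT 2 weeks replicate 1 (29.21) had Cx3cl1 values of 7.524 and 7.523. The part of neurons in the Cx3cl1 level was not tested.

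**Figure D3:**
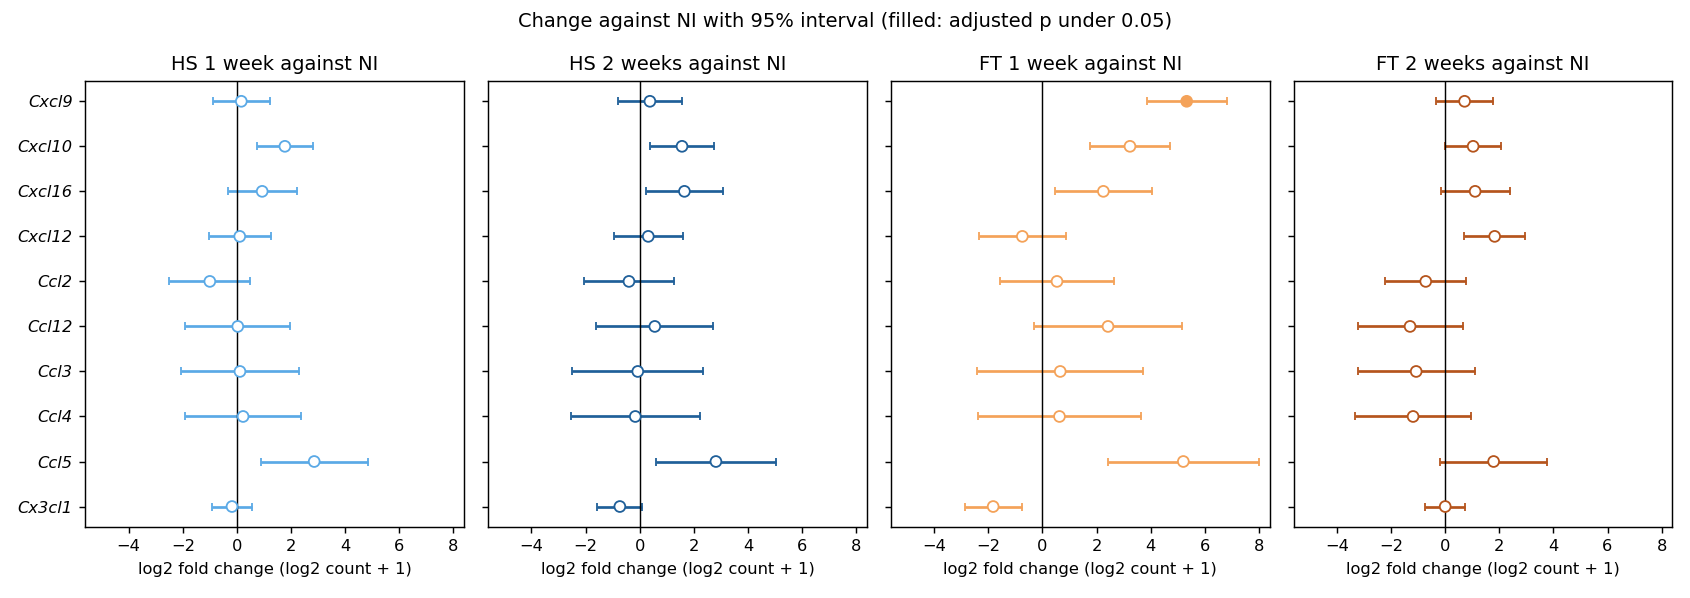
Log2 fold change against NI (x axis, log2 of normalized count plus 1) of the 10 ligands at HS 1 week, HS 2 weeks, FT 1 week and FT 2 weeks, with 95% intervals from limma-trend and filled points for an adjusted p under 0.05. Only Cxcl9 at 1 week after FT (5.33) is filled, and the intervals of Ccl3 and Ccl4 are the widest in each comparison.

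Counts over the 10 ligands are given with the share of all genes called in the same way, as percentages of the genes tested. At 1 week after HS limma-trend called 0 ligands (0.0061% of all genes higher), 2 had an unadjusted p under 0.05 (7.66% of all genes), and the edgeR quasi-likelihood test called 0 (0.0061% of all genes). The likelihood ratio test called 2, Cxcl10 and Ccl5 (0.299% of all genes higher), and DESeq2 also 2 (0.507%). At 2 weeks after HS limma-trend called 0 (0.0122% of all genes higher), with 3 at an unadjusted p under 0.05 (7.49%), the quasi-likelihood test 0 (0.0122%), the likelihood ratio test 1, Ccl5 (0.421%), and DESeq2 1 (0.857%). The members not overlapping NI were 2 higher at 1 week (7.31% of all genes) and 2 higher and 1 lower at 2 weeks (12.9% and 11.6%).

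In FT 1 week against NI Cxcl9 alone, 1 of 10 ligands, was called by limma-trend, with 0.372% of all genes called higher. At an unadjusted p under 0.05 there were 5 (11.2% of all genes). The quasi-likelihood test called 1 (0.427% of all genes in either direction), the likelihood ratio test 3, Cxcl9, Cxcl10 and Ccl5 (1.14% higher), and DESeq2 4 (2.56%). Of the 10 ligands, 6 were above and 1 was below the NI range, compared with 27.2% and 30.1% of all genes, which is a large background because the group has 1 library. The median log2 fold change of the ligands was 1.455, that of all genes was -0.018 and that of the 14 microglia markers was 1.637. At 2 weeks after FT limma-trend called 0 ligands (0.0305% of all genes higher), 1 had an unadjusted p under 0.05 (10.8% of all genes), and the quasi-likelihood test (0.0244%), the likelihood ratio test (0.47% higher) and DESeq2 (2.12%) also called 0. There 3 ligands were above and 1 was below NI (6.92% and 7.99% of all genes), and the median was 0.361. The 4 comparisons share the NI libraries.

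For the mean of the injured groups limma-trend called 0 ligands (0.256% of all genes higher), with 5 at an unadjusted p under 0.05 (13.9% of all genes) and 0 by the quasi-likelihood test (0.195%). The likelihood ratio test called 3, Cxcl9, Cxcl10 and Ccl5 (1.02% higher), and DESeq2 3 (3.31%). The injured mean of Cxcl9 includes the lone FT 1 week library, with a limma-trend log2 fold change of 5.33. At HS 1 week, HS 2 weeks and FT 2 weeks, where Cxcl9 overlapped NI, it was 0.16, 0.38 and 0.72. Cxcl10 and Ccl5 were the 2 ligands above NI in all 9 injured libraries, as were 1.97% of all genes. Comparing severities at 1 week, limma-trend called 1 ligand, Cxcl9 (0.287% of all genes higher), as did the likelihood ratio test (0.513%) and DESeq2 (0.772%), while the quasi-likelihood test called 0 (0.226%) and 2 had an unadjusted p under 0.05 (5.64%). The FT 1 week library was above every HS 1 week library for 5 ligands (19.1% of all genes) and below for 2, Cxcl12 and Cx3cl1 (23.5%). At 2 weeks limma-trend called 0 (0% of all genes), 1 had an unadjusted p under 0.05 (2.26%), the other tests called 0 (0%), and Cxcl12 and Cx3cl1 were the 2 ligands higher after FT without overlap (11%). Between HS 2 weeks and HS 1 week no ligand was called by limma-trend or the other tests (0% of all genes), and 0 had an unadjusted p under 0.05 (1.62%). From 1 to 2 weeks after FT limma-trend called 1 lower, Cxcl9 (0.281% of all genes lower), and the likelihood ratio test 4 lower, Cxcl9, Cxcl10, Ccl5 and Ccl12 (0.958%). The quasi-likelihood test called 0 (0.244%) and DESeq2 2 (1.49%), and 6 had an unadjusted p under 0.05 (9.17%). Between those groups 8 ligands were lower and 2, Cxcl12 and Cx3cl1, were higher without overlap (28.6% and 29.5% of all genes).

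Among the receptors of these ligands, none changed against NI by limma-trend. Of 23 chemokine receptors listed, 15 were in the table, and those with an unadjusted p under 0.05 numbered 1, 1, 2 and 2 at HS 1 week, HS 2 weeks, FT 1 week and FT 2 weeks, near the share of all genes (7.66%, 7.49%, 11.2% and 10.8%). The quasi-likelihood test called none, the likelihood ratio test 2 lower at 2 weeks after FT (1.75% of all genes lower), and DESeq2 1 at 1 week after FT (2.56%). Cxcr3, the receptor of Cxcl9 and Cxcl10, was not analysed here. Ccr1, a receptor of Ccl3 and Ccl5, was 27.46 ± 16.3 (SD, n = 3) in NI compared with 4.86 ± 0.3764 (SD, n = 3) in FT 2 weeks, where all libraries were below NI (limma-trend adjusted p = 0.427, likelihood ratio FDR = 0.0349). The microglia sum was 1153 to 1967 in that group, and NI replicate 1 had a Ccr1 of 9.036 at a sum of 699.5.

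Ccr2, the receptor of Ccl2 and Ccl12, was 16.81 ± 13.21 (SD, n = 3) in NI and had group means of 2.644 to 5.79 after injury, with log2 fold changes of -1.86 to -0.95 (limma-trend adjusted p of at least 0.49). Cxcr4, which binds Cxcl12, was 29.55 ± 21.15 (SD, n = 3) in NI with log2 fold changes of -1.38 to -0.28. Ackr3, listed as Cxcr7, the second receptor of Cxcl12, had log2 fold changes of -1.07 to 0.48. Cxcr6, the receptor of Cxcl16, was 5.104 in the lone FT 1 week library and 0.5843 to 3.303 in the other 11 (limma-trend adjusted p = 0.415 against NI). Cx3cr1, the receptor of Cx3cl1 and a microglia marker, was 33.63, 490.2 and 673.8 in NI and had log2 fold changes of -1.27 to 1.29 (limma-trend adjusted p of at least 0.754).

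Of 28 other chemokine ligands listed, 20 were in the table, and limma-trend called none against NI. Those with an unadjusted p under 0.05 numbered 1, 1, 3 and 4 in the order HS 1 week, HS 2 weeks, FT 1 week and FT 2 weeks (7.66%, 7.49%, 11.2% and 10.8% of all genes), and the quasi-likelihood test called none. At 1 week after FT the likelihood ratio test of edgeR called 3 of them (1.81% of all genes in either direction) and DESeq2 2 (2.56%). These 3 are named after their values were seen. Cxcl13, the B cell chemoattractant, was 719.7 normalized counts in the lone FT 1 week library and 5.029, 5.49 and 103.6 in NI (limma-trend adjusted p = 0.225, likelihood ratio FDR = 0.0215). Ccl8, which encodes MCP-2, was 91.33 there and 2.2, 1.277 and 0.8637 in NI (limma-trend adjusted p = 0.0557, likelihood ratio FDR = 4.55e-05). Pf4, the platelet chemokine, was 2.283 there and 46.91, 17.75 and 54.63 in NI (limma-trend adjusted p = 0.185, likelihood ratio FDR = 0.0346).

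Of 22 cytokine signalling genes known to induce chemokines, 20 were in the table, and 3 were called higher by limma-trend at 1 week after FT, compared with 0.372% of all genes. Irf7 and Stat2 were among them. Irf7, a master regulator of type I interferon genes, was 14.11 ± 4.118 normalized counts (SD, n = 3) in NI compared with 183.2 in the lone FT 1 week library (log2 fold change 3.64, limma-trend adjusted p = 0.0203). Stat2, a transcription factor downstream of type I interferon, was 23.97 ± 1.431 (SD, n = 3) and 106.6 (log2 fold change 2.11, limma-trend adjusted p = 0.022). In the other 3 comparisons with NI limma-trend called none of the 20, with 4, 4 and 3 at an unadjusted p under 0.05 (7.66%, 7.49% and 10.8% of all genes). The likelihood ratio test called 1, 1 and 2 of them (0.299%, 0.421% and 0.47% of all genes higher), DESeq2 3, 1 and 2 (0.507%, 0.857% and 2.12%) and the quasi-likelihood test none. Irf7 was called by the likelihood ratio test in all 4 (FDR = 6.22e-06, 0.00207, 3.24e-09 and 0.0328 at HS 1 week, HS 2 weeks, FT 1 week and FT 2 weeks).

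For the mean of the injured groups Irf7 was called higher by limma-trend (log2 fold change 2.35, adjusted p = 0.0189), and it was above NI in all 9 injured libraries. Tnf was 17.33 and Il1b 47.01 normalized counts in the lone FT 1 week library, both inside their NI ranges of 4.557 to 18.28 and 6.522 to 79.03. The proteases Adam10, Adam17 and Dpp4, which shed or trim chemokines, were not called by limma-trend or the other tests in any comparison with NI. Of these 3, 1 had an unadjusted p under 0.05 by limma-trend at 1 week after HS (7.66% of all genes).

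**Figure D4:**
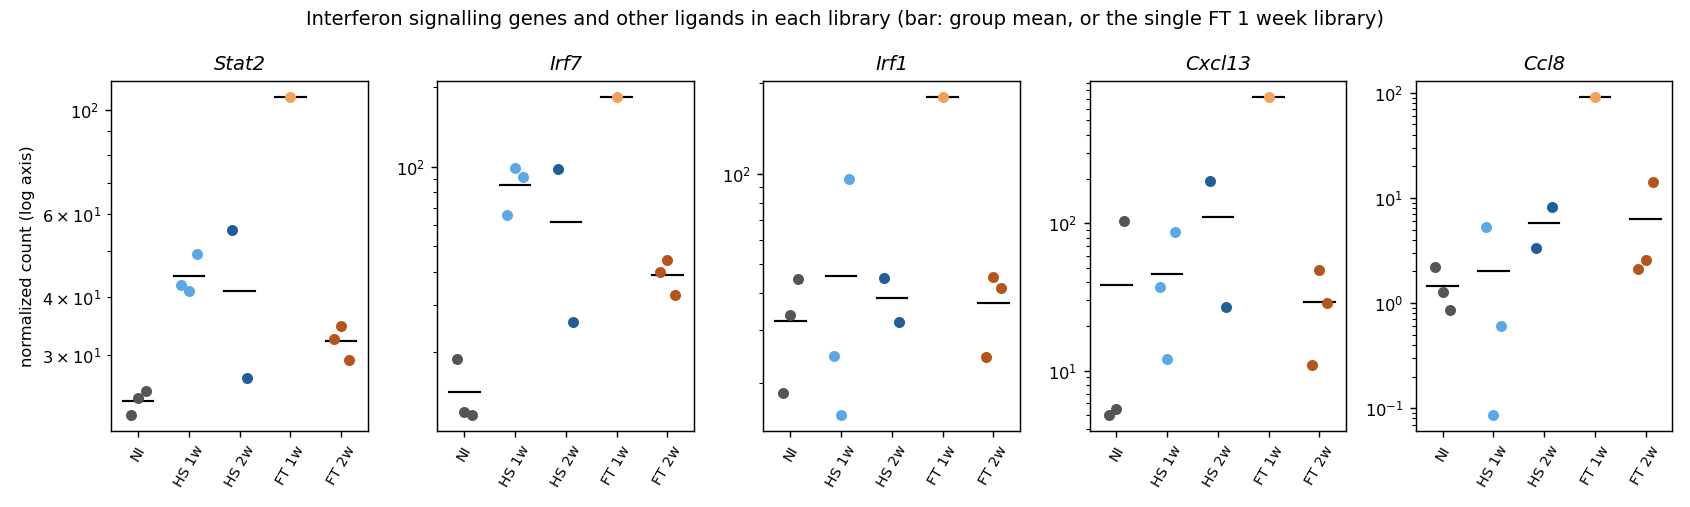
Normalized counts (log axis) of Stat2, Irf7, Irf1, Cxcl13 and Ccl8 in each of the 12 libraries by group, with a bar at the group mean or at the single FT 1 week library. The FT 1 week library is the highest for all 5 genes, and Irf7 is above every NI library in all injured libraries.

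To find genes with a like pattern, log2 levels in the 12 libraries were centred on each gene's mean, divided by its SD and compared by mean absolute difference over 11264 genes. Nearest to Cxcl9 were Gbp2 (0.168 SD units), Gm12250 (0.194) and Il18bp (0.233), where the median gene was at 1.05. Nearest to Cxcl12 were Cldn1 (0.177), Tshz3 (0.189) and Ehd2 (0.201), with a median of 1.12. Nearest to Ccl3 was Ccl4 (0.14), ahead of Acer3 (0.177) and Sh3tc1 (0.179), with a median of 1.13. Cx3cl1 had no gene as near, with Pltp at 0.273, Zfp692 at 0.351 and Mro at 0.366 (median 1.12). All of these distances share the same libraries and carry no test.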

How the data were processed

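RNA of sorted eGFP+ cells was sequenced from its polyadenylated fraction (SMARTer Ultra Low and Nextera, no strand) in 12 libraries, grouped by their labels. The authors used TopHat2 2.0.9 for alignment (mm10, GRCm38), HTSeq 0.5.4p3 for gene counts and edgeR 3.3.6 for normalization, per the methods and the submitters' processing notes. The deposited values are a signal, gene counts divided by 1 factor per library, for 16389 genes. All values (100%) gave whole reads within 1e-06, and implied scaling was 1.001 times that of TMM in each library, so count tests were run on the recovered reads. The members and lists were chosen with earlier results of these data known.

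Log2 of normalized count plus 1 was fitted with limma 3.58.1 (limma-trend, R 4.3.3) with a term per group, over the 16388 genes whose mean reached 0.5 in any group. The p-values were adjusted by Benjamini-Hochberg over these genes, with 3.687 prior and 7 residual degrees of freedom, the latter from the 4 replicated groups. Alternatives were pseudocounts of 0.25 and 4, no filter, a mean of at least 5, median ratio scaling, only the compared groups, array quality weights, a replicate block, the log2 sum of 14 microglia markers as covariate, edgeR 4.0.16 (quasi-likelihood with TMM, and likelihood ratio with the deposited scaling), DESeq2 1.42.0 and each library left out. The tests were tested on simulated data. Intervals of read counts are exact Poisson intervals.

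The genes named are the 10 ligands, the receptors of these ligands, the members of 4 lists (receptors, other ligands, inducers and proteases) called by limma-trend against NI or between FT and HS, and the 3 genes nearest to Cxcl9, Cxcl12, Ccl3 and Cx3cl1 in pattern. Cxcl13, Ccl8, Pf4, Irf1, Tnf, Il1b, Klrk1 and Nkg7 were named after their values were seen. Not every gene this rule gives is reported. Positions are those of GENCODE on GRCm38, and promoters those of RefSeq on GRCm38.p6.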

Additional observations from a re-analysis of the deposited data

Results flagged for a closer look

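Cxcl9 differed between severities at 1 week, where FT was 5.17 log2 units above HS (limma-trend adjusted p = 0.00703). It also differed between time points after FT, by -4.61 log2 units from 1 to 2 weeks (limma-trend adjusted p = 0.0141). Both differences rest on the single FT 1 week library, and both calls were lost by the edgeR quasi-likelihood test (FDR = 0.0521 and 0.0766) and with a pseudocount of 0.25. The first was also lost when only the compared groups were fitted. Ccl12 was flagged because the FT 1 week library was above all NI libraries while all 3 FT 2 weeks libraries were below them, a difference of -3.72 log2 units. This opposite placing was not tested as such, and the contrast of the time points gave a limma-trend adjusted p of 0.383 and a likelihood ratio FDR of 0.00655. No group had the 4 libraries needed to look for a library far from its group.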

How the results depend on the processing

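At 1 week after FT Cxcl9 was called in each fit apart from that of only the compared groups (log2 fold change 5.33, adjusted p = 0.0905), where 0 ligands were called in place of 1. Of all genes, that fit called 0, and the fit of all groups 74. Array quality weights called 5 ligands there (928 genes in all), the microglia covariate 4 (783), the likelihood ratio test 3 (297), DESeq2 4 (370) and fits without 1 library 1 to 2. Cxcl10 was the gene added without HS 1 week replicate 3, HS 2 weeks replicate 1 or HS 2 weeks replicate 2 (adjusted p = 0.0396, 0.0334 and 0.0322, with 130, 97 and 97 genes in all). At 1 week after HS the count of 0 became 4 with array quality weights (1267 genes in all), 1 with the microglia covariate (134) and 2 with the likelihood ratio test (61) and DESeq2 (83), and at 2 weeks after HS it became 1 with these last tests (124 genes each). At 2 weeks after FT 0 became 2 with array quality weights (1447 genes in all) and 0 to 1 without 1 library (1 without NI replicate 1, with 458). For the injured mean 0 became 1 with a pseudocount of 4 (45 genes in all), 4 with array quality weights (1199), 3 with the microglia covariate (705), the likelihood ratio test (670) and DESeq2 (542), and 0 to 2 without 1 library (1 without NI replicate 1, HS 1 week replicate 2 or HS 1 week replicate 3, and 2 without HS 2 weeks replicate 2). Between FT and HS at 1 week 1 became 0 with a pseudocount of 0.25, only the compared groups or the quasi-likelihood test. Between FT 2 weeks and FT 1 week 1 became 0 with a pseudocount of 0.25 or the quasi-likelihood test, 9 with only the compared groups (1575 genes in all), 4 with array quality weights (295), 4 with the likelihood ratio test (214), 2 with DESeq2 (220), and 0 to 2 without 1 library (2 without NI replicate 1, and 0 without FT 2 weeks replicate 1 or FT 2 weeks replicate 3). The cause of these changes was not tested.

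Directions reversed for ligands that were not called. With array quality weights, log2 fold changes at 1 week after HS were -0.45 (Ccl3) and -0.58 (Ccl4), and that of Cx3cl1 at 2 weeks after FT was -0.12. With the replicate block, those at 2 weeks after HS were 0.11 (Ccl2), 0.45 (Ccl3) and 0.40 (Ccl4). With the microglia covariate, those at 1 week after FT were -0.17 (Ccl2), -0.69 (Ccl3) and -0.69 (Ccl4). By the quasi-likelihood test, the likelihood ratio test and DESeq2, Ccl3 at 2 weeks after HS had 0.49, 0.49 and 0.51, Ccl4 there 0.16, 0.16 and 0.18, and Cxcl12 at 1 week after HS -0.23, -0.23 and -0.22. Cx3cl1 at 2 weeks after FT had -0.0173 and -0.0185 by the first and second of these. Without 1 library, ranges at 1 week after HS were -0.28 to 0.71 (Cxcl9), -0.33 to 0.78 (Cxcl12), -0.93 to 1.03 (Ccl3), -0.91 to 1.11 (Ccl4), -0.74 to 0.92 (Ccl12) and -0.34 to 0.0699 (Cx3cl1). At 2 weeks after HS they were -0.19 to 0.99 (Cxcl12), -1.68 to 1.53 (Ccl3), -1.51 to 1.19 (Ccl4) and -0.97 to 2.09 (Ccl12), and at 2 weeks after FT -0.16 to 0.26 (Cx3cl1). Of 15 pairs of libraries with the same number, 5 correlated above 0.1 (-0.478 to 0.718). Of 11 libraries, 6 correlated best with their own number. The labels do not say what a shared number stands for, and whether it marks a shared preparation was not tested. The replicate block, which had no place for the FT 1 week library, left the counts at 0 in HS 1 week, HS 2 weeks and FT 2 weeks. Low levels of Cxcl9 and Cx3cl1 limit their folds.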

Other observations

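Ccl7 and Ccl11, CC chemokines for monocytes and eosinophils from the list of other ligands, were chosen here after their values were seen. Ccl11 was 96.26, 7.341 and 3.239 normalized counts in NI, 13.97 in the lone FT 1 week library and 65.8, 133.3 and 109.3 at 2 weeks after FT (log2 fold change 2.72 at 2 weeks after FT, limma-trend adjusted p = 0.438). Ccl7 was 99.56, 12.64 and 15.04 in NI and 28.34, 68.05 and 104.5 at 2 weeks after FT (log2 fold change 1.09, limma-trend adjusted p = 0.616). NI replicate 1 held the most of both in NI, as it did of Cxcl12 (44.08) and of the pericyte and fibroblast marker sum (7002). Cxcr2, the receptor of neutrophil chemokines, is also named after its values were seen. It was 29.15, 32.87 and 31.09 in NI and 10.21 to 23.42 in the 9 injured libraries, all below NI. The share of all genes placed this way is not given here. Its mean log2 fold change over the injured groups was -1.11 (limma-trend adjusted p = 0.0823, likelihood ratio FDR = 0.00886). The blood myeloid marker sum was 341.3 to 5849 in NI and at most 1180 after injury. NI replicate 1 had a sum of 341.3 and a Cxcr2 of 29.15. HS 1 week replicate 3 had a sum of 1180 and a Cxcr2 of 17.19. The part of these cells in the Cxcr2 level was not tested.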
